A study of Caenorhabditis elegans with 2 samples.

Results

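The nuclear hormone receptor genes of *Caenorhabditis elegans* were described in 2 mRNA sequencing libraries from heated worms, 1 from the wild type and 1 from a pmk-1 deletion mutant. A gene was a member if its WormBase symbol begins with nhr- or is daf-12, unc-55, fax-1, odr-7 or sex-1, and if at least 1 library listed a coding sequence ID of it. By this rule 100 genes were members, out of 8730 genes with a read in either library and out of 274 annotated receptor genes. The other 174 receptor genes, among them nhr-49, nhr-25, nhr-80, unc-55 and odr-7, had no listed ID and were not analysed here. The choice of members used no measured ratio.

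The wild type was strain N2 Bristol. The mutant was strain KU25 with the allele pmk-1(km25), a deletion in the gene for a worm p38 kinase of stress and immune signalling. Both were young adults grown at 20 °C on *Escherichia coli* OP50 and exposed to 35 °C for 5 h, and RNA came from whole-worm lysates. Heat was common to both groups, unheated worms were not analysed here, and pmk-1 itself was not analysed here, so the deletion was not checked. Each genotype has 1 library, so there is no replicate error and no test of genotype.

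Nuclear hormone receptors are transcription factors that hold a zinc-finger DNA-binding domain and, in most members, a domain that binds small lipophilic ligands such as sterols, bile acid-like steroids or fatty acids. Ligand binding changes which coactivators or corepressors the receptor holds at its target genes. Nematodes carry a family far larger than that of insects or vertebrates, grown mostly from an ancestor related to the vertebrate receptor HNF4. In the worm, receptors are known for control of fat use, vitamin B12-dependent metabolism, detoxification, moulting, dauer formation and neuron identity.

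The libraries held 5.78 M and 5.23 M uniquely mapped reads in the wild type and the mutant. Every ratio below is mutant over wild type in CPM, which is reads scaled to the library total. Its exact 95% interval (conditional binomial, Clopper-Pearson) covers counting error only. The level for a call was 50 reads in either library. Genes past it were called higher or lower where the CPM values differed by 2-fold or more and the interval left out 1. Across the 5197 genes at that level the median log2 ratio was -0.33, a ratio of 0.793, so a gene at a ratio of 1 lay above the median gene. Markers of tissues differed between the libraries in the same scale. Of 48 markers of muscle, pharynx, neurons, intestine and hypodermis, 41 were listed, taking 0.923% of wild-type and 1.96% of mutant reads, and their pooled ratio was 2.12 (2.10 to 2.14). Of the 30 at the level, 22 were called higher and none lower, against 17.6% and 1.75% of all genes at the level. The tissues differed. Of 6 intestine markers at the level 2 were called higher. Of 2 hypodermis markers at the level 1 was called higher and 1 had an interval below 1, with a median log2 ratio of 0.10. The markers unc-54, myo-3, unc-22, myo-5, rab-3, ges-1 and bli-1 were listed in neither library. Oogenic germline markers took 1.52% and 0.842% of reads, a pooled ratio of 0.554 (0.548 to 0.561), and all 13 listed of 17 had intervals below 1. Sperm markers had a pooled ratio of 10.6 (9.32 to 12.1), and all 18 listed had a higher CPM in the mutant. In whole worms, fewer cells of a type and less RNA per cell cannot be told apart. The part of tissue makeup in any receptor ratio below was not tested.

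Receptor transcripts were scarce in both libraries. All 100 members together took 2936 wild-type reads and 3213 mutant reads, which is 0.0508% and 0.0614% of the library. The pooled ratio was 1.21 (1.15 to 1.27), which turned to 0.513 when the libraries were scaled so that the body tissue markers had a median log2 ratio of 0. Per length, the median over members of the mean RPKM (reads per kilobase of listed coding length, scaled to the library total, averaged over both libraries) was 1.14, against 16.4 over all listed genes. A mean of at least 10 RPKM was reached by 11 members (11%) and by 56.7% of all genes. No member was among the top 10% of genes by this measure. The 5 members with most reads in the wild type (nhr-86, nhr-46, nhr-48, sex-1 and nhr-20) held 41.2% of the family's wild-type reads. In the mutant the top 5 had nhr-76 and nhr-88 in place of sex-1 and nhr-20 and held 30.4% of its reads.

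nhr-86 (Y40B10A.8), a receptor known to sense a bacterial metabolite and to drive intestinal immune genes, had the highest level. It stood at 53.7 RPKM (wild type) and 48.3 RPKM (mutant) and ranked 2899th of 8730 genes. Second was nhr-46 (C45E5.6) at 26.6 and 22.2 RPKM, in both libraries. After them the order depended on the genotype. In the wild type sex-1 (20.7 RPKM) and nhr-20 (20.3) followed, while in the mutant nhr-69 (21.8) and nhr-76 (19.9) did. The early embryonic gene nhr-2 stood at 16.1 and 18.2 RPKM and nhr-48, a relative of the vertebrate vitamin D receptor group, at 16.4 and 15.2. The remaining members at the level of 50 reads lay between 3.22 RPKM (nhr-105, wild type) and 15.2 RPKM (nhr-88, mutant).

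**Figure D1:**
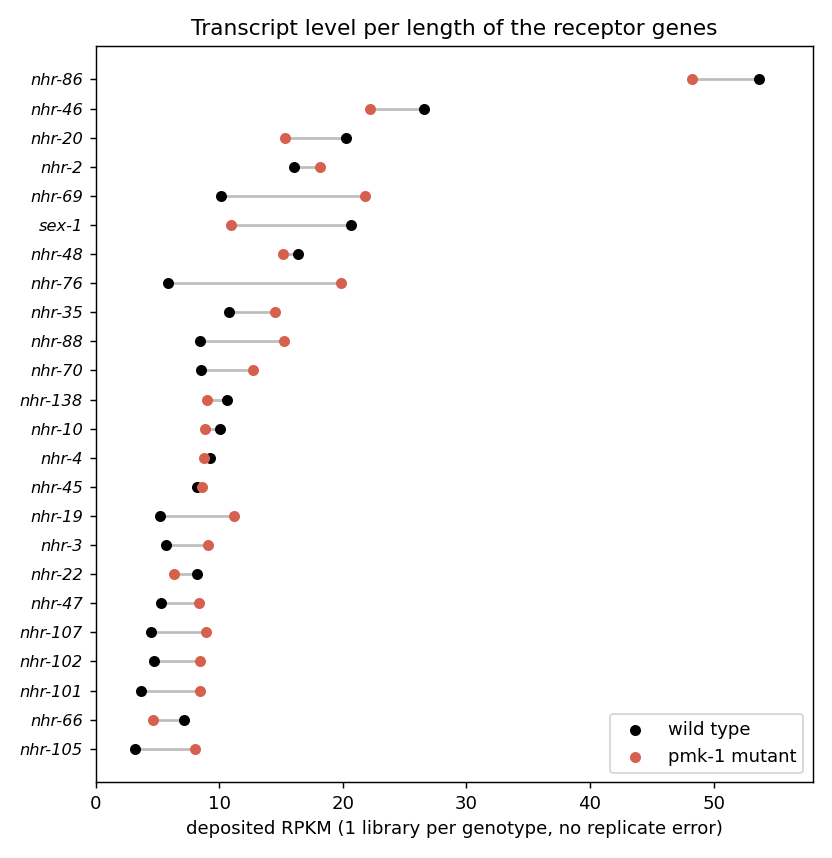
Deposited RPKM (x axis) of the 24 receptor genes past the level of 50 reads, ordered by the mean of both libraries, with black points for the wild type and red points for the pmk-1 mutant. nhr-86 stands apart at 53.7 and 48.3 RPKM, and nhr-76 and nhr-69 have their mutant points far to the right of their wild-type points.

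Of the 100 members, 24 reached 50 reads in a library. This level favours genes that are high in 1 library, since 7 of the 24 reached it in the mutant alone and 1 in the wild type alone. Among the 24, 5 were called higher in the mutant and none lower. With the scaling on body tissue markers none was called higher and 12 lower, against 5.83% and 69.3% of all genes. With library totals, over all genes at the level the share called higher was 17.6% and the share called lower 1.75%, so the share of receptors called higher (20.8%) lay near this background. Among the 2594 genes at the level with no more reads than nhr-86, the share called higher was 26.9% and the share called lower 2.66%. The interval lay above 1 for 12 members (50%), below 1 for 3 (12.5%) and reached 1 for 9. The shares over all genes were 30.2% above and 53.6% below, and in the same range of reads as the receptors they were 40.4% and 34.3%. The median log2 ratio of the 24 was 0.30, against -0.33 for all genes at the level and -0.057 for those in the same range of reads. It turned to -0.93 with the scaling on body tissue markers. Among the 16 members that reached the level in both libraries it was -0.09, against -0.40 for all such genes, and 1 of the 16, nhr-69, was called higher.

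**Figure D2:**
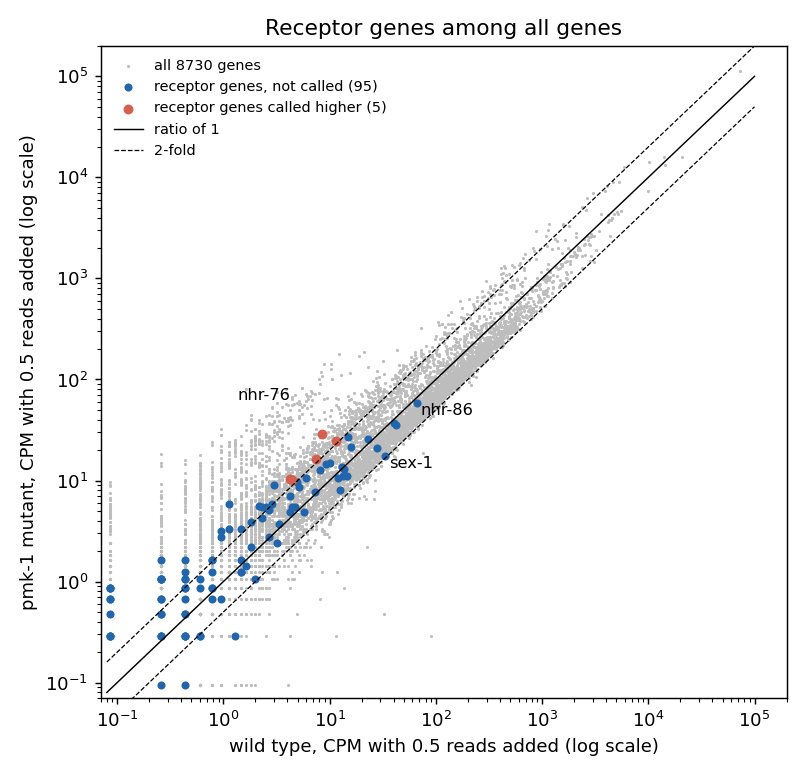
CPM with 0.5 reads added in the wild type (x axis) and the pmk-1 mutant (y axis), both on log scales, for all 8730 genes in grey, the 95 receptor genes not called in blue and the 5 called higher in red. The receptors lie in the lower part of the range, with nhr-86 highest, and most of the shallow ones lie above the line of equal CPM, as 71.6% of all genes below the level do.

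The largest ratio among the 24 belonged to nhr-76 (C05G6.1), an intestinal receptor known to link serotonin signalling to fat loss. It had 49 wild-type reads and 150 mutant reads, or 8.47 CPM (exact Poisson interval 6.27 to 11.2) and 28.7 CPM (24.3 to 33.7). The ratio was 3.39 (2.44 to 4.77), and the intervals of both CPM values were apart. Reads covered 70.3% (wild type) and 97.0% (mutant) of the listed 1443 bases. With the body tissue markers set to a median of 0 its log2 ratio dropped from 1.75 to 0.51, with a ratio of 1.43 (1.03 to 2.02).

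nhr-69 (T23H4.2), a receptor close to vertebrate HNF4 that is linked to secretion of an insulin-like peptide, had 66 reads against 128. Its ratio was 2.14 (1.58 to 2.93), from 11.4 CPM (8.82 to 14.5) and 24.5 CPM (20.4 to 29.1). It was the 1 called member that had at least 50 reads in both libraries. nhr-19 (E02H1.7) had 43 reads against 84, a ratio of 2.16 (1.48 to 3.20). nhr-101 (H12C20.6) had 25 reads against 52, a ratio of 2.30 (1.4 to 3.87). For nhr-19, nhr-101 and nhr-69 the log2 ratio turned to -0.14, -0.05 and -0.14 with the scaling on body tissue markers. nhr-105 (C06G3.1) had 24 reads against 54, a ratio of 2.49 (1.51 to 4.21), but its reads lay on a small part of the gene. They covered 8.76% and 10.2% of the 1290 bases of the main ID, and a second ID added 1 and 2 reads. Of the 5 called genes, 4 reached 50 reads in the mutant alone.

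nhr-107 (C33G8.11) lay just outside the thresholds, with 28 reads against 50 and a ratio of 1.97 (1.22 to 3.26). It was called higher with TMM scaling and with either form of median-of-ratios scaling, while its log2 ratio turned to -0.27 with the scaling on body tissue markers. nhr-135 (VC5.5) had 17 reads against 47 and a ratio of 3.06 (1.72 to 5.68), and missed the level of 50 reads. The other members with intervals above 1 had smaller ratios. nhr-102 and nhr-88 each had a ratio of 1.79 (1.15 to 2.83 and 1.36 to 2.37), from 34 against 55 reads and 86 against 139 reads. nhr-3 and nhr-47 each had a ratio of 1.59, from 46 against 66 reads and 53 against 76 reads. nhr-70 had 58 against 78 reads, a ratio of 1.49 (1.05 to 2.13), and nhr-35, with 91 wild-type reads, had a ratio of 1.35 (1.01 to 1.80). Scaled on body tissue markers, all 6 of these genes turned to ratios below 1. The intervals of nhr-102, nhr-88 and nhr-3 then reached 1, and those of nhr-47 (0.672, 0.467 to 0.973), nhr-70 (0.630, 0.443 to 0.901) and nhr-35 (0.572, 0.429 to 0.763) lay below it.

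The smallest ratio at the level belonged to sex-1 (F44A6.2), an X-linked receptor that counts X chromosomes in the embryo by repressing the switch gene xol-1. It had 192 wild-type reads and 92 mutant reads, or 33.2 CPM (28.7 to 38.2) and 17.6 CPM (14.2 to 21.6). It was 1.89-fold lower in the mutant (1.46 to 2.45), just short of the 2-fold threshold, and its log2 ratio of -0.91 lay 0.58 below the median of all genes. With every scaling tried its interval stayed on the lower side, and its log2 ratio ranged from -2.15 with the body tissue markers at 0 to -0.58 with median-of-ratios scaling over the genes at the level. Other X-linked genes lay mostly on the other side, since 63.1% of the 453 at the level had intervals above 1 and 15.5% below, with a median log2 ratio of 0.66. The log2 ratio of sex-1 lay near the median of the oogenic germline markers (-0.86), while the body tissue markers had 1.24 and the sperm markers 3.19. Any part of tissue makeup in the sex-1 ratio was not tested.

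The other members with intervals below 1 were closer to the median of all genes. nhr-66 (T09A12.4), which acts with NHR-49 on genes of lipid metabolism, had 72 wild-type and 42 mutant reads, 1.55-fold lower (1.05 to 2.33). Its reads covered 12.5% and 12.1% of the listed length, and the annotation gives the gene 10 coding isoforms. nhr-20 (F43C1.4) had 161 wild-type and 110 mutant reads, 1.32-fold lower (1.03 to 1.70). With TMM scaling the intervals of nhr-66 and nhr-20 reached 1 (ratios of 0.687 and 0.805).

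For 9 members the interval reached 1. The best measured of them were nhr-86 with 380 reads against 309 (ratio 0.899, 0.771 to 1.05), nhr-46 with 244 against 184 (0.834, 0.685 to 1.01) and nhr-48 with 233 against 195 (0.926, 0.761 to 1.12). For these 3 genes the intervals leave out a difference of 1.5-fold in either direction with library totals. nhr-2 (132 against 135 reads), nhr-45 (75 against 71), nhr-4 (79 against 68), nhr-10 (69 against 55), nhr-138 (76 against 58) and nhr-22 (83 against 58) had ratios between 0.773 and 1.13. With the scaling on body tissue markers all 9 of these genes but none of the 5 called higher were at least 2-fold lower in the mutant.

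**Figure D3:**
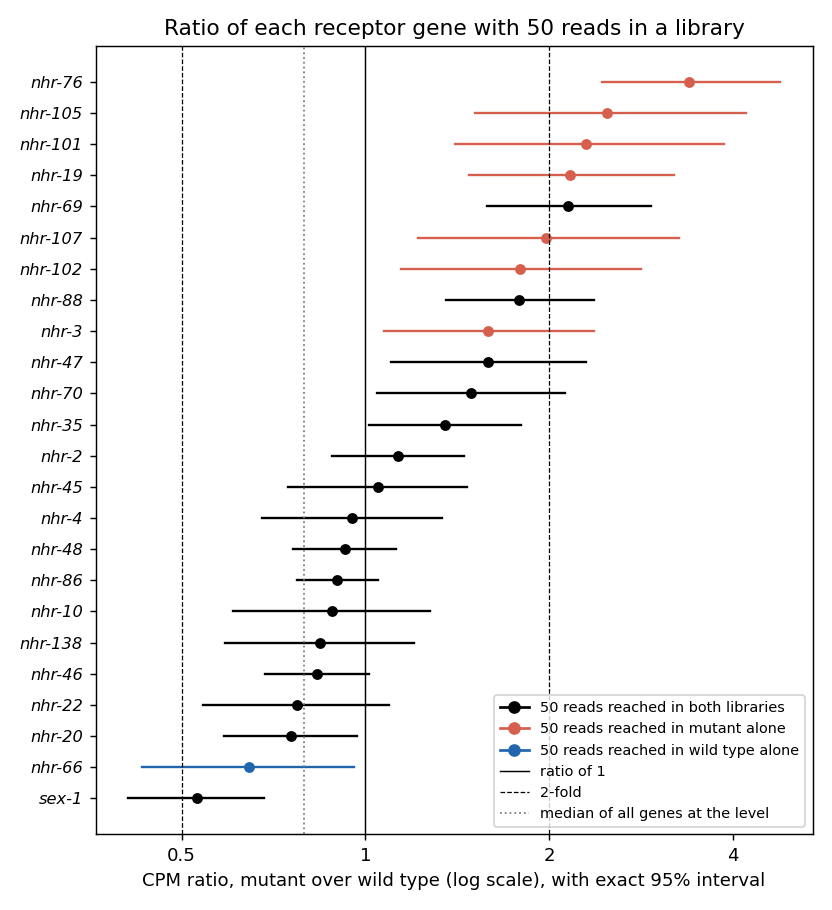
CPM ratio of mutant over wild type (x axis, log scale) with its exact 95% interval for the 24 receptor genes past the level of 50 reads, coloured by the library in which 50 reads were reached. nhr-76 has the highest ratio (3.39) and sex-1 the lowest (0.530), and 6 of the 7 members with the highest ratios reached 50 reads in the mutant alone.

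Of 7 receptors with a known role in fat and energy use, 5 were listed. The 2 with 50 reads did not share a direction, with nhr-76 on the higher side and nhr-66 on the lower. A higher CPM in the mutant was seen for 4 of the 5, against 4386 of all 8730 genes and 71.6% of those under the level. The pooled ratio of the 5 was 1.85 (1.48 to 2.31), with most mutant reads from nhr-76. It turned to 0.783 with the scaling on body tissue markers. nhr-62, needed for the long life of food-restricted worms, had 6 reads against 17, a ratio of 3.13 (1.18 to 9.71). nhr-64 had 2 reads against 8 and nhr-13, a partner of NHR-49, had 2 in each library, so their intervals reached 1. Of the receptors of vitamin B12-dependent metabolism, nhr-10, which activates propionate breakdown, had a ratio of 0.882 (0.607 to 1.27). nhr-114, which protects the germline through the methionine cycle, had 24 reads against 25, a ratio of 1.15 (0.631 to 2.11).

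Among receptors of sterols, foreign compounds, pathogens and oxygen, nhr-86 and nhr-45 had 50 reads and neither interval excluded 1. nhr-45, linked to detoxification under mitochondrial stress, had a ratio of 1.05 (0.746 to 1.47). The sterol and drug response gene nhr-8 had 4 reads in each library, and nhr-57, a target of the hypoxia factor HIF-1, had 9 against 7. daf-12, the receptor for dafachronic acids that decides between dauer and adult development, had 1 read against 3, on 2.17% and 2.52% of its listed length, and 7 annotated coding isoforms. These counts are too low to show a difference. hizr-1, a zinc-sensing receptor whose symbol falls outside the rule, had 10 reads against 6.

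Receptors of moulting, development and neuron identity had few uniquely mapped reads, apart from nhr-2. nhr-23, a driver of the moulting cycle, had 11 reads against 5, a ratio of 0.503 (0.137 to 1.57). Its reads covered 4.3% and 4.19% of the listed length, and the annotation gives the gene 6 coding isoforms. Its count may therefore not reflect the level of the whole gene, which was not tested. nhr-85, related to Rev-erb, had 0 against 1, and nhr-6, the worm NR4A receptor of the spermatheca, had 2 against 3. The neuronal gene fax-1 had 2 reads in each library. Of the 15 receptors with a clear counterpart in insects or vertebrates, 10 were listed and 2, nhr-48 and sex-1, had 50 reads. nhr-91, related to GCNF, had 1 read against 8 (ratio 8.85, 1.19 to 393). Of the pair with 50 reads the interval lay below 1 for sex-1 and reached 1 for nhr-48. A higher CPM in the mutant was seen for 7 of the 10 listed, against 4386 of all 8730 genes and 71.6% of those under the level. The pooled ratio of the 10 was 0.792 (0.684 to 0.917), with most reads from nhr-48 and sex-1.

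The 76 members under the level had a pooled ratio of 1.63 (1.46 to 1.83), from 537 reads against 793. All genes under the level together had 1.55 (1.53 to 1.57), a value inside the interval of the members. With the scaling on body tissue markers the ratio of the members turned to 0.692, where all genes under the level had 0.656. Of these 76, 60 (78.9%) had a higher CPM in the mutant, against 71.6% of all genes under the level. The interval lay above 1 for 11 (14.5%), against 20.5% of all such genes, and below 1 for none, against 2.58%. So the shallow receptors lay on the side where shallow genes in general lay. Apart from nhr-135, the 11 were nhr-122, nhr-98, nhr-110, nhr-92, nhr-11, nhr-146, nhr-62, nhr-203, nhr-79 and nhr-91, with ratios from 1.72 for nhr-122 to 8.85 for nhr-91. The wild type alone listed 2 members and the mutant alone 9, with at most 4 reads. For such a gene the limit on the missing side is 3 reads, equal to 0.519 CPM (wild type) or 0.574 CPM (mutant).

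Many receptor genes lie side by side. In the WBcel235 gene order, 137 of the 274 annotated receptor genes stood in 44 runs of at least 2 consecutive protein-coding genes that are receptors, 32 of them on chromosome V. In the runs 31.4% of genes were listed, against 41.6% outside them. Most listed genes in runs were shallow, and of all genes under the level 71.6% had a higher CPM in the mutant. Of 10 runs with at least 2 listed members, 7 had all of their listed members at a ratio above 1. The summed reads had an interval above 1 in 6 and below 1 in none. All genes under the level together had a pooled ratio of 1.55. Of the 6 intervals above 1, only that of the run with nhr-98 left out this value. Runs of other genes were not analysed, so the count of 6 has no share to be set against. The run of nhr-122, nhr-92, nhr-87 and nhr-146 on chromosome IV was listed in full, with 29, 12, 10 and 14 reads in the wild type against 45, 29, 20 and 28 in the mutant. Its summed ratio was 2.08 (1.52 to 2.85), and all 4 genes had a higher CPM in the mutant. With the scaling on body tissue markers this ratio turned to 0.880.

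The highest summed ratio with an interval above 1 was that of the chromosome V run with nhr-98, nhr-203 and nhr-123. nhr-98 had 6 reads against 30, nhr-203 5 against 16 and nhr-123 2 against 6, and the sum gave 4.42 (2.38 to 8.86), or 1.87 with the scaling on body tissue markers. The run that holds nhr-107 had a summed ratio of 2.18 (1.4 to 3.44), mostly from that gene, which turned to 0.923 with the scaling on body tissue markers. The run around nhr-103 (24 against 36 reads) had 1.63 (1.16 to 2.31), which turned to 0.691 in the same way. In the run of nhr-228, nhr-115 and nhr-226 the reads were 18 against 15, a ratio of 0.922 (0.432 to 1.94). Genes of a run are related copies, only uniquely mapped reads were counted, and the members of a run are not replicates.

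**Figure D4:**
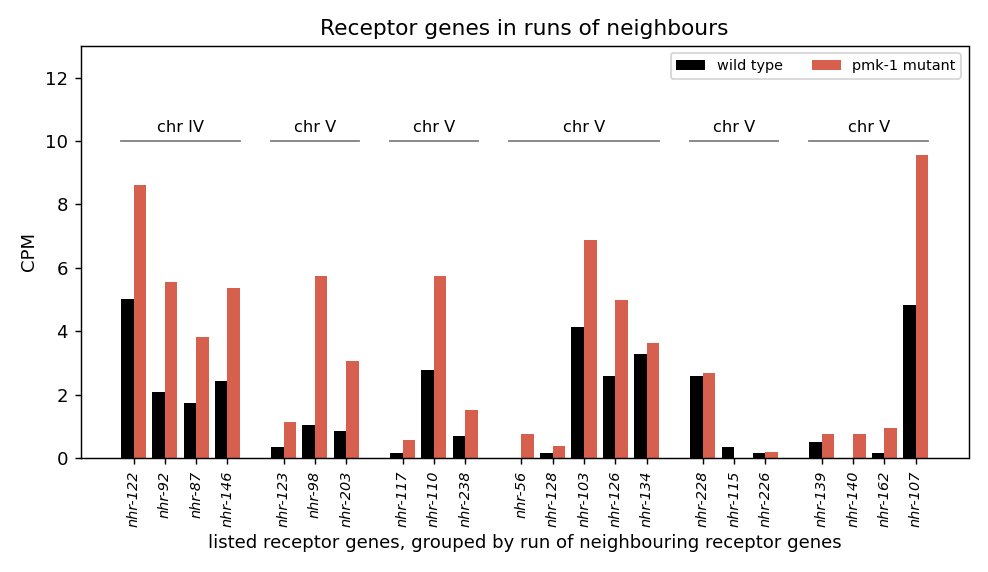
CPM in the wild type (black bars) and the pmk-1 mutant (red bars) for listed receptor genes in the 6 runs of neighbouring receptor genes with at least 3 listed members, with the chromosome above each run. In the run of nhr-122 all 4 mutant bars are higher, and in the run of nhr-228 the bars are about equal or at 1 or 2 reads.

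Genes that make ligands, carry signals or serve as targets of these receptors were taken from lists chosen with earlier results of these data known. Of 8 genes of dafachronic acid and sterol handling, 3 were listed and 1 had 50 reads, the P450 reductase gene emb-8 with 1770 against 1649 reads (ratio 1.03, 0.963 to 1.1). Of 9 coregulator genes, 6 were listed and 4 had 50 reads. All 4 had intervals below 1, as 53.6% of all genes at the level did, and none was called. They were the Mediator kinase module genes cdk-8 (1.53-fold lower, 1.42 to 1.65), let-19 (1.47-fold lower, 1.33 to 1.64) and cic-1 (1.44-fold lower, 1.2 to 1.72), and the SUMO gene smo-1 (1.38-fold lower, 1.28 to 1.5). Their median log2 ratio was -0.54, or -0.21 relative to all genes. mdt-15, the Mediator subunit that works with NHR-49, had 14 reads against 10 on 3.71% and 3.76% of its listed length. din-1, a corepressor of DAF-12, had 16 against 42 reads, a ratio of 2.90 (1.60 to 5.53).

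Target genes of receptors in fat oxidation and detoxification included 5 genes called higher in the mutant with library totals. Of 10 genes that NHR-49 controls or that lie in the same pathways, 4 were listed, 3 had 50 reads and all 3 were called higher, against 17.6% of all genes at the level and 26.9% of those in the range of reads of the receptors. The fourth, ech-1.2, had 15 reads against 11 (0.811, 0.337 to 1.89). The other genes of this list, fat-5, fat-6, fat-7, fmo-2, cpt-5 and ech-1.1, had no listed ID, so nothing is known of them here. The acyl-CoA synthetase gene acs-2 had 133 reads against 321 (2.67, 2.17 to 3.29). The dehydrogenase gene hacd-1 had 115 reads against 362 (3.48, 2.81 to 4.33). The glyoxylate cycle gene icl-1 had 87 against 329 (4.18, 3.29 to 5.36), on 12.5% and 12.6% of its listed length. Of 10 P450 genes of the CYP-35 family, 4 were listed, 3 had 50 reads and 2 were called higher. They were cyp-35A2 with 300 against 709 reads (2.61, 2.28 to 3) and cyp-35C1 with 287 against 596 (2.30, 1.99 to 2.65), and cyp-35A3 had a ratio of 1.66 (1.14 to 2.42). The 6 intestine markers at the level had a median log2 ratio of 0.83, with a range of 0.57 to 1.92. The 3 fat oxidation genes and 3 P450 genes had medians of 1.8 and 1.2, both inside that range. With the scaling on body tissue markers the medians of the fat oxidation and P450 genes were 0.56 and -0.040. Any part of intestine content in these values was not tested.

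In the propionate shunt, which NHR-10 activates, the 4 genes at the level had intervals above 1 and none was called. Over all genes at the level, 30.2% had intervals above 1 and 53.6% below. The ratios of the 4 propionate genes lay between 1.58 for the hydratase gene ech-6 and 1.87 for the dehydrogenase gene alh-8. acdh-1 had 1.82 (1.71 to 1.93) from 1654 against 2719 reads. Their median log2 ratio of 0.77 turned to -0.47 with the scaling on body tissue markers. Methionine cycle genes were split. Of 6 at the level, the methionine synthase gene metr-1 (0.762, 0.716 to 0.811) and its reductase gene mtrr-1 (0.630, 0.571 to 0.695) had intervals below 1. ahcy-1, sams-1, pmt-2 and mthf-1 had intervals above 1, with pmt-2, a methyltransferase of phosphatidylcholine synthesis, at 1.81 (1.74 to 1.88). The median log2 ratio of the 6 turned from 0.33 to -0.91 with the scaling on body tissue markers. Among 12 moulting genes mlt-10 alone passed the level, with 57 wild-type and 14 mutant reads, 3.68-fold lower (2.03 to 7.15). irg-4, 1 of 3 immune genes in the list for NHR-86, had 14 reads against 3, a ratio of 0.237 (0.0437 to 0.849). It was under the level for a call, and the other 2, irg-5 and irg-6, were not listed.

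**Figure D5:**
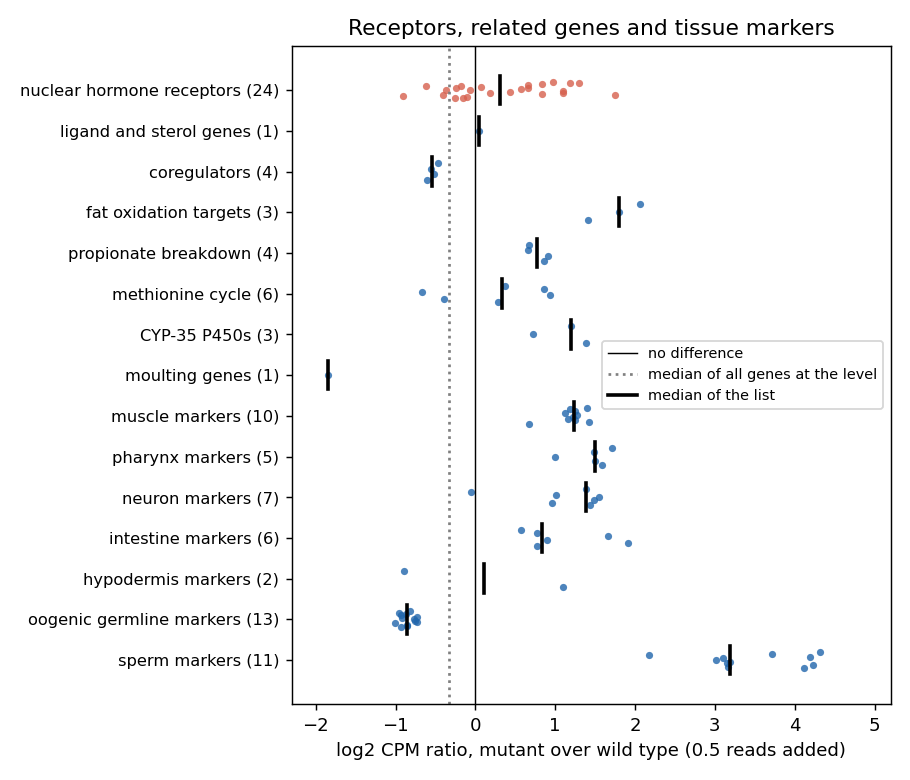
Log2 CPM ratio of mutant over wild type (x axis, 0.5 reads added) for genes past the level of 50 reads, with 1 point per gene, a black bar for the median of each list and the number of genes in brackets. The 24 receptors spread from -0.91 to 1.75 around a median of 0.30, between the oogenic germline markers (median -0.86) and the muscle (1.24) and pharynx (1.5) markers.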

How the data were processed

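Per the labels' protocols, mRNA was selected on oligo(dT) beads and copied with random hexamers before Illumina HiSeq sequencing. The deposited values are raw counts of uniquely mapped reads for each coding sequence, per the file headers. RPKM was computed by the authors, per the file headers, and was matched from counts and lengths with a largest relative error of 2.8e-08. The percent of each listed length covered by reads is also the authors', per the file headers. Sources used here name no aligner, build or strand setting, so coordinates are left out, and reads of overlapping genes cannot be told apart. Unlisted IDs were read as 0, which was not tested.

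IDs lost their isoform letter, were matched to WBcel235 (Ensembl release 115; 9383 of 9430 IDs) and were summed per gene. Log2 ratios used a prior of 0.5 reads. Intervals treat reads as independent molecules and cover counting error only. Python 3.11.15, SciPy 1.17.1 and pandas 2.3.3 were used, and the calls and intervals were tested on simulated data. These were Poisson counts, the model the intervals assume, with no variation between libraries and with changes planted in well-counted genes only. The simulation therefore cannot show how the calls behave with such variation or for changes in shallow genes.

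The rule for named genes took members with 50 reads or a listed role and, in each related list, up to 5 genes at the level with the largest absolute log2 ratios. Other members under the level, the runs, hizr-1 and the remaining related genes were named after their values were seen. The members and lists were chosen with earlier results of these data known.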

Additional observations from a re-analysis of the deposited data

How the results depend on the processing

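No paired analysis was possible because each genotype has 1 library. The count of receptors called higher (5 with library totals) was 11 of 40 at a level of 20 reads, 2 of 10 at 100 reads, 15 of 100 with no level filter, 10 of 24 at a 1.5-fold threshold and 0 of 24 with the scaling on body tissue markers. The shares of all genes in these settings were 21.6%, 14.3%, 18.3%, 25% and 5.83%. In settings chosen after seeing the data it was 1 of 16 with 50 reads required in both libraries (all genes 9.52%) and 10 of 24 with median-of-ratios scaling over the genes at the level (all genes 23.9%). The count called lower (0) was 2 of 24 at the 1.5-fold threshold, against 27.6% of all genes, and 12 of 24 with the scaling on body tissue markers, against 69.3%. The median log2 ratio (0.30) turned to -0.93 with the scaling on body tissue markers and to -0.090 with 50 reads required in both libraries. The pooled ratio (1.21) was 1.29 with TMM scaling, 1.29 without the 10 most abundant genes in the totals, 0.513 with the scaling on body tissue markers, 1.53 with median-of-ratios scaling over the genes at the level and 1.29 for members with 1 annotated isoform. Of the 36 receptors followed singly, 3 changed sign after being called, all with the scaling on body tissue markers (nhr-69 to -0.14, nhr-19 to -0.14, nhr-101 to -0.052), and 22 more moved out of their interval there. With TMM scaling, median-of-ratios scaling, totals without the 10 most abundant genes, the ID with most reads, RPKM or a prior of 2 reads all 36 stayed inside, and 3 moved out with median-of-ratios scaling over the genes at the level. The gap of the median to that of all genes (0.64) cannot move with a scaling, which shifts all genes alike. It moved with the choice of genes, to 0.31 with 50 reads required in both libraries, 0.43 at 100 reads and 0.88 at 20 reads. For members with 1 annotated isoform it was 0.90, but there the median of all genes still included genes of any isoform number. Depth limits the family: 51 of 100 members had under 10 reads in both libraries.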

Other observations

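The receptor genes were listed unevenly over the chromosomes. On chromosome V, which holds 167 of the 274 annotated receptor genes, 50 were listed (29.9%), against 31.1% of all protein-coding genes there. On chromosome IV 19 of 33 were listed (57.6%, against 44.2% of all genes), and on chromosome I 7 of 24 (29.2%, against 53.6%). Pooled over listed members, the ratio was 1.5 (1.26 to 1.80) on chromosome I, where all genes together had 0.816, and 1.48 (1.24 to 1.77) on chromosome II (all genes 0.885). It was 1.35 (1.23 to 1.48) on chromosome V (all genes 1.05) and 1.24 (1.12 to 1.37) on chromosome IV (all genes 1.0). The lowest were 0.952 (0.851 to 1.06) on the X chromosome, where all genes had 1.57, and 0.840 (0.687 to 1.03) on chromosome III (all genes 0.872). Members had fewer reads than genes in general, with wild-type medians of 6.5 and 63. All genes under the level together had a pooled ratio of 1.55. The chromosome sums of members and of all genes were not matched for reads. Such sums also weigh genes by their reads, so a few genes can set them. On chromosome I nhr-2 and nhr-69 had 135 and 128 of the 298 mutant reads. On the X nhr-48 and sex-1 had 233 and 192 of the 689 wild-type reads, while 9 of 13 members had a higher CPM in the mutant. Of all 1063 genes on the X, 800 did. Scaled on body tissue markers, the pooled ratios of the members were below 1 on all 6 chromosomes, from 0.356 on chromosome III to 0.638 on chromosome I. The longest run of neighbouring receptor genes, 9 genes on chromosome V from nhr-185 to nhr-124, had no listed ID.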
